A study of Rattus norvegicus with 6 samples.

Results

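Sparc, elastin (Eln), the laminin chains Lamb2 and Lama3 and the collagen chain Col12a1 are the 5 extracellular matrix genes described here, out of 1103 genes named on the array. Each was measured by 1 probe in the hearts of 6 rats. The members were chosen by platform gene symbol, selected on an earlier analysis of these same values that compared the groups, so their group differences are given as a description with no test. The study set 3 rats that underwent cardiopulmonary bypass (CPB, circulation and gas exchange carried by a pump and an oxygenator) beside 3 sham-operated controls. Total RNA of the whole heart was hybridised, 1 array per rat. The labels give inflammation and cytokines as key words, and name no strain, age, bypass length or sampling time for either group. A whole heart mixes cell types, so fewer matrix-producing cells and less RNA per cell cannot be told apart. Nothing in the labels says how the animals were handled together, so the spread between arrays of a group may be partly technical.

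The cardiac extracellular matrix holds muscle cells, vessels and fibroblasts in place and carries force between them. Sparc (osteonectin) is a secreted matricellular protein that binds collagen and takes part in its assembly into fibrils, and fibroblasts and endothelial cells are known sources. Elastin is the recoiling core of elastic fibres in arteries and heart valves. Laminins are trimers of an alpha, a beta and a gamma chain that build basement membranes around muscle cells and vessels. Lamb2 is a beta chain of such trimers in muscle, and Lama3 is an alpha chain best known from epithelia. Col12a1 encodes collagen XII, which sits on the surface of collagen fibrils.

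RefSeq promoter sequences were matched by symbol for 2 of the members, Sparc and Lama3. The 250 bases before each start are shown as the stretch where regulators of transcription may bind. The Sparc window lies at chr10:40038817-40039066 (GRCr8, minus strand) and the Lama3 window at chr18:3952517-3952766 (GRCr8, plus strand), both written 5′ to 3′ on the gene's strand. Capitals mark GGAGG or its complement in Sparc and TGANTCA, the letters of an AP-1 site, in Lama3. Which motif to capitalise was decided after the matches were seen.
Sparc: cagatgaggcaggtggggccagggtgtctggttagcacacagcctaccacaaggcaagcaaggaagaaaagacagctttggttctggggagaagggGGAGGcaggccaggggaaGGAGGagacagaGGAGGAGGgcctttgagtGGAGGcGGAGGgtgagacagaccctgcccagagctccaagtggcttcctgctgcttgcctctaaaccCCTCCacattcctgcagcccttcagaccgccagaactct
Lama3: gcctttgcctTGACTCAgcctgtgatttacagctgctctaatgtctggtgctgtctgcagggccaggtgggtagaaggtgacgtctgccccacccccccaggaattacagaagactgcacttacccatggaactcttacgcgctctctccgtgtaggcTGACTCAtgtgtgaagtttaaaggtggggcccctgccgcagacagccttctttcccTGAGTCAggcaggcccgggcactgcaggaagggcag
The Sparc window held GGAGG at 7 places on either strand, 2 of them overlapping, between 154 and 39 bases before the start. Of 33469 promoter windows of this length, 64.7% held GGAGG and 1.52% held it at 7 or more places. The Lama3 window held TGANTCA at 240, 92 and 36 bases before the start, with GGAGG not found there. This AP-1 motif, which reads the same on both strands, was in 6.34% of the windows and at 3 or more places in 0.0149%. The E-box CANNTG had 3 matches in each window and was present in 65.5% of all windows. TATAAA (12.9% of windows), GGGCGG (30.5%), CCAAT (34.0%), ACGTG (16.6%) and GCGTG (25.9%) had no match in either window. A match describes these letters alone.

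Each array had a lowest level under which no value was listed, and values rose from it in equal steps. The step was 80.1 to 359.6 linear units, and 10.7% to 47.3% of the probes stood at the lowest level, most of all on the 2 arrays numbered 3. Sparc, Eln and Lamb2 were above that level on all 6 arrays, as were 498 of the 1185 probes, while Lama3 was above it on 5 arrays and Col12a1 on 2. The cardiac muscle genes Myh6 (alpha myosin heavy chain) and Tnnt2 (cardiac troponin T) held the 2 brightest ranks on every array. Across the whole table, limma called 0 of 1185 probes at an adjusted p under 0.05 (0%), and 35 had an unadjusted p under 0.05. None of the 5 members was among the called.

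**Figure D1:**
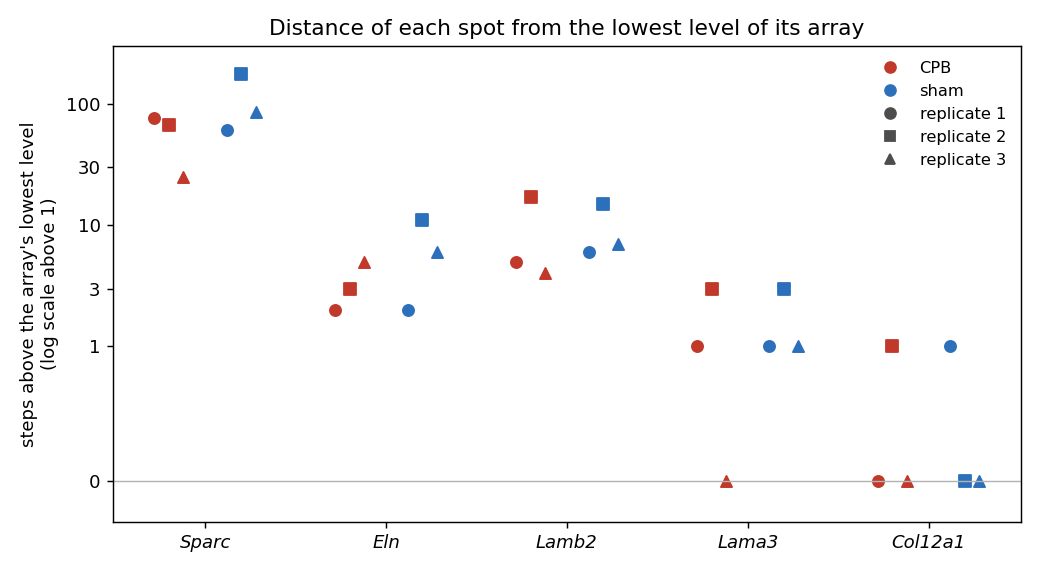
The vertical axis gives the number of whole steps between a gene's spot and the lowest level of its array (log scale above 1), for each of the 6 hearts, with CPB in red and sham in blue. Sparc lies 25 to 177 steps up, Eln and Lamb2 2 to 17, Lama3 0 to 3 and Col12a1 0 or 1. A step is of another size on each array, so the points show precision and not levels.

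Sparc, the collagen-binding matricellular gene, was lower in the bypass hearts. Its normalized log2 intensity was 13.82, 12.50 and 13.10 in CPB replicates 1, 2 and 3, and 14.49, 14.61 and 14.83 in sham replicates 1, 2 and 3. Every CPB heart lay under every sham heart, with 0.67 between the nearest values, CPB replicate 1 and sham replicate 1. The means were 13.14 ± 0.66 (SD, n = 3) and 14.64 ± 0.17 (SD, n = 3). The difference of -1.50 (SE 0.33, limma) puts the sham level at 2.84 times the CPB level, and no other probe had a lower difference.

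Quantile normalization sets each value by its rank on the array, so ranks restate the normalized values. Counted from the brightest of the 1185 probes, Sparc ranked 22, 56 and 37.5 (a tie) in CPB hearts 1 to 3, against 14, 13 and 11 in sham hearts 1 to 3. Between hearts of the same replicate number, the CPB value was lower by differences of -0.67, -2.11 and -1.73 for numbers 1, 2 and 3. In number 1 the spot stood 77 steps up in CPB and 61 in sham, but the steps were of 192.2 and 312.0 linear units, so step counts ran opposite to the normalized values there. The CPB hearts spread more widely than the sham hearts, over 1.32 against 0.33. A larger SD in CPB than in sham was found for 38.3% of all probes. Sparc is bright enough that 0.5 of a step moves its log2 value by at most 0.027. After median scaling over all probes the difference was -1.01 and the groups overlapped, with 14.65 as the highest CPB value and 13.99 as the lowest sham value. That median lay only 1 step above the lowest level in CPB replicate 1, sham replicate 1 and sham replicate 3. Scaled on the median of probes above the lowest level on all arrays, the difference was -1.41. The groups then stood apart, with 14.07 as the highest CPB value and 14.18 as the lowest sham value.

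**Figure D2:**
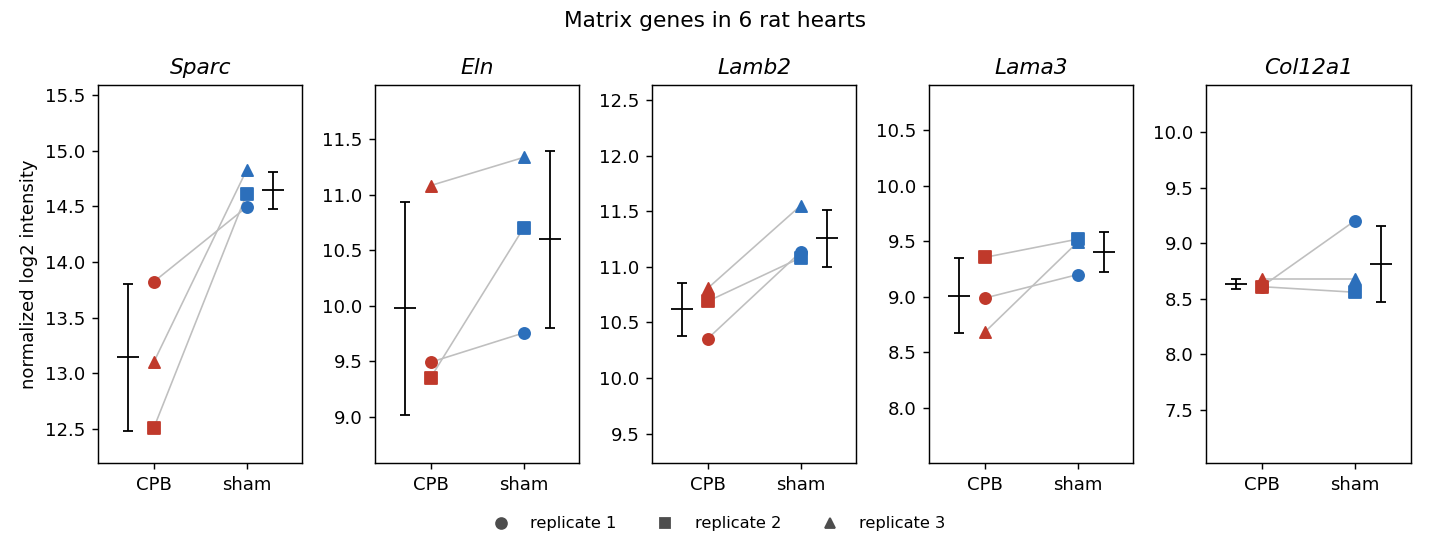
Normalized log2 intensity of the 5 genes in the 3 CPB (red) and 3 sham (blue) hearts, each panel spanning the same width in log2 units. Marker shapes give the replicate number, grey lines join hearts of the same number, and black bars give mean ± SD (n = 3). The groups stand apart for Sparc and Lamb2 and overlap for Eln, Lama3 and Col12a1.

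Lamb2, the laminin beta-2 chain, was lower in the bypass hearts as well, by a smaller amount. Its log2 intensity was 10.35, 10.69 and 10.81 in CPB replicates 1, 2 and 3, and 11.13, 11.08 and 11.55 in the sham replicates. No CPB heart reached a sham heart, and 0.28 lay between CPB replicate 3 and sham replicate 2. The means were 10.62 ± 0.24 (SD, n = 3) and 11.26 ± 0.26 (SD, n = 3), a difference of -0.64 (SE 0.31, limma). Lamb2 varied little within groups, its pooled SD of 0.25 being larger than that of 31.9% of all probes.

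Matched by replicate number, the Lamb2 differences were -0.78, -0.39 and -0.74, the most even of the 3 genes measured on all arrays. The spot lay 5, 17 and 4 steps up in CPB and 6, 15 and 7 in sham, so 0.5 of a step moves a value by up to 0.12. After median scaling the Lamb2 difference was -0.33 and the groups overlapped (10.96 as the highest CPB value, 10.91 as the lowest sham value). Scaled on the median of probes above the lowest level on all arrays, it was -0.72 and the groups stood apart (10.66 and 11.09).

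Groups stood apart with CPB lower for 2 of the 5 members, Sparc and Lamb2, and for 31 of all 1185 probes (2.62%). Since the members were chosen on this contrast, nothing is read from that count. Over all probes the median log2 difference was -0.03, and 52.5% of them were lower in CPB.

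Lama3, the laminin alpha-3 chain, was close to the limit of measurement. Its spot lay 1, 3 and 0 steps above the lowest level in CPB replicates 1, 2 and 3, and 1, 3 and 1 in the sham replicates. The normalized log2 values were 8.99, 9.35 and 8.68 in CPB and 9.20, 9.52 and 9.49 in sham. CPB replicate 2 lay above sham replicate 1, so the groups overlapped. The difference was -0.40 (SE 0.33, limma), with means of 9.01 ± 0.34 (SD, n = 3) and 9.40 ± 0.18 (SD, n = 3). At such levels 0.5 of a step moves a value by up to 0.37. As deposited, the difference was -0.72 and the groups were apart, and it was -0.26 without CPB replicate 3, the heart at the lowest level. With both arrays numbered 3 left out, an alternative chosen after seeing the data, it was -0.19.

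Elastin was the most variable of the 5 genes within groups. Its log2 intensity was 9.49, 9.35 and 11.08 in CPB replicates 1, 2 and 3, and 9.76, 10.70 and 11.33 in sham replicates 1, 2 and 3. The hearts numbered 3 were the highest of both groups, and CPB replicate 3 exceeded 2 of the 3 sham hearts. The means were 9.98 ± 0.96 (SD, n = 3) and 10.60 ± 0.79 (SD, n = 3), a difference of -0.62 (SE 0.48, limma) that is smaller than the SD of either group. The pooled SD of 0.88 exceeded that of 98.2% of all probes and of 97.6% of those above the lowest level on all arrays.

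Matched by replicate number, elastin was lower in CPB each time, by differences of -0.26, -1.35 and -0.25. Number 2 held most of it. The spot lay 2, 3 and 5 steps up in CPB and 2, 11 and 6 in sham, and 0.5 of a step moves the lowest of these by up to 0.23. The elastin difference depended on single hearts. Leaving out CPB replicate 1 gave -0.33, CPB replicate 2 gave -0.28 and CPB replicate 3 gave -1.25. Leaving out sham replicate 1 gave -1.06, and sham replicate 3 gave -0.32. As deposited it was -0.98, and -0.99 with arrays scaled on the median of the probes above the lowest level everywhere. With both arrays numbered 3 left out it was -1.01.

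Col12a1, the collagen XII chain, had almost no measured level in these hearts. Its spot lay 1 step above the lowest level in CPB replicate 2 and sham replicate 1 and at that level in the other 4 hearts. Normalized log2 values were 8.61, 8.61 and 8.68 in CPB and 9.20, 8.56 and 8.68 in sham, so 1 sham heart stood above the rest. The difference was -0.18 (SE 0.16, limma), with means of 8.63 ± 0.042 (SD, n = 3) and 8.81 ± 0.34 (SD, n = 3). It was 0.016 without sham replicate 1 and -0.27 without sham replicate 2. As deposited it was -0.62, a scale on which the arrays' own lowest levels differ, from 171.1 to 556.5 linear units. With all deposited values raised to the highest of these, a floor added after seeing the data, the Col12a1 difference was -0.14, that of Lama3 -0.46 and that of Sparc -1.40, its value also without the floor.

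**Figure D3:**
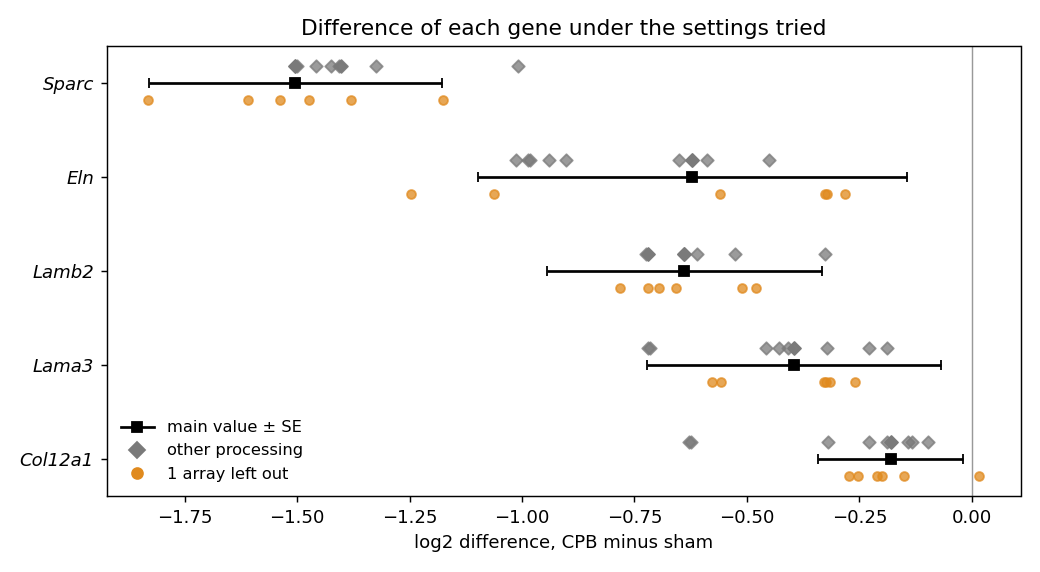
Log2 difference (CPB minus sham) of each gene. Black squares give the main value ± SE, grey diamonds the other processing settings and orange circles the values with 1 array left out. Sparc lies between -1.83 and -1.01, Lamb2 between -0.78 and -0.33 and Eln between -1.25 and -0.28, and of all points 1 is above 0, that of Col12a1 without sham replicate 1.

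Between the members, patterns over the 6 hearts were compared as the root mean square difference of log2 values centred on each gene's mean. This measure is small for genes that both vary little. The laminin chains Lamb2 and Lama3 were the nearest pair at 0.32, and Sparc and Eln the farthest at 0.88. Correlation over the 6 hearts gave another order. Sparc with Lamb2 and Eln with Lamb2 (both 0.67) came before Lamb2 with Lama3 (0.57), and Eln with Col12a1 was lowest (-0.20). By root mean square difference, Sparc was nearer to Lamb2 (0.66) than to Lama3 (0.75). Among 468 other named probes above the lowest level on all arrays, those nearest to Sparc were Dbp, a clock-controlled transcription factor (0.40), Lyc2, a lysozyme (0.50), and P2ry14, a receptor for UDP-sugars (0.53). The SD of Sparc itself over the 6 hearts was 0.93.

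Dbp stood at 10.69, 10.05 and 10.09 in CPB and at 11.54, 11.08 and 11.13 in sham hearts, with CPB replicate 1 the highest of its group, as for Sparc, but sham replicate 1 also the highest of its group, where Sparc was lowest. The probes nearest to Lamb2 were Snrk (0.035), Syne1 (0.17) and Tmod2 (0.18), of which Tmod2, a tropomodulin, was 9 to 40 steps above the lowest level and the other two 1 to 4. Nearest to Eln were Acsm2 (0.35), Bpifa2f (0.41) and Tspo (0.41), each, like Eln, highest in the hearts numbered 3 among the CPB arrays and among the sham arrays. For Lama3 they were Akr1b1 (0.12), Clec10a (0.15) and Kcnk3 (0.16), and for Col12a1 Lsamp (0.11), Nupr1 (0.11) and Rph3al (0.11), the latter 3 within 4 steps of the lowest level. Values of 1 or 2 steps repeat between genes, so a small figure there says little.

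Other matrix genes on the array lay on both sides of 0. Of 273 genes written in 9 lists of matrix roles, 28 besides the members were measured, and 17 were lower in CPB, 10 higher and 1 equal. Their median log2 difference was -0.13, against -0.03 over all 1185 probes. None passed the threshold (limma adjusted p), and 1, Furin, had an unadjusted p under 0.05. After median scaling 15 were lower and 13 higher, and as deposited 23 were lower and 5 higher. Of all probes 52.5% were lower in the main fit, and their median was -0.29 as deposited and 0.11 after median scaling. Of the 28, 9 were above the lowest level on all arrays.

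Of 24 genes on the list for collagen and elastin maturation, 3 were measured. All 3 were higher in CPB, none past the threshold. Furin and Pcsk6 among them are convertases of proproteins in general. Furin, a convertase that cleaves proproteins, stood at 10.09, 10.05 and 10.09 in CPB replicates 1, 2 and 3 and at 9.20, 9.76 and 8.68 in the sham replicates. Its groups did not overlap, and groups stood apart with CPB higher for 19 of all 1185 probes. The Furin difference was 0.86 (SE 0.37), from spots 0 to 9 steps above the lowest level. Plod1, a lysyl hydroxylase of collagen, differed by 0.54 (SE 0.51) and the convertase Pcsk6 by 0.16 (SE 0.36), both with overlapping groups. Plod1 spots lay 1, 6 and 5 steps above the lowest level in CPB and 0, 6 and 1 in sham. As deposited the differences were 0.59 for Furin, 0.17 for Plod1 and 0.020 for Pcsk6. After median scaling they were 0.99, 0.57 and 0.41.

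The receptors and proteases of the matrix were mostly within a few steps of the lowest level. Itga7, the laminin-binding integrin alpha chain of muscle, was at 10.99, 10.87 and 10.81 in CPB and at 11.13, 11.08 and 11.33 in sham replicates 1, 2 and 3. The groups did not overlap, and the difference was -0.29 (SE 0.29), or 0.050 after median scaling. Itgae and Itgb7, integrin chains of lymphocytes, were at most 1 step above the lowest level on any array. The same held for the proteases Mmp12 and Mmp23 and the cartilage collagen Col2a1, and Mmp13 was at the lowest level on all 6 arrays.

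Of 11 proteoglycan core proteins, 5 were above the lowest level on all arrays. Among the 11, 8 were lower in CPB and 3 higher. Their median was -0.18, or -0.52 as deposited and -0.12 after median scaling. Those of the 11 with the smallest unadjusted p were Bcan (-0.75, SE 0.38), Bgn (-0.49, SE 0.34) and Acan (-0.27, SE 0.18). Bgn was at -0.099 after median scaling, and Acan was above the lowest level on sham replicate 2 alone. Bcan was at that level in CPB replicate 3. Of 7 TGF-beta family signalling genes, 3 were lower and 4 higher, with a median of 0.0048 that was -0.20 as deposited and 0.20 after median scaling. Acvrl1, an endothelial receptor of the family, differed by -0.51 (SE 0.35), Smad9 by -0.56 (SE 0.40) and the inhibitor Smad7 by 0.14 (SE 0.13), or -0.26 as deposited. Smad7 was above the lowest level in CPB replicate 2 alone, and Smad9 was at that level in CPB replicate 3.

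**Figure D4:**
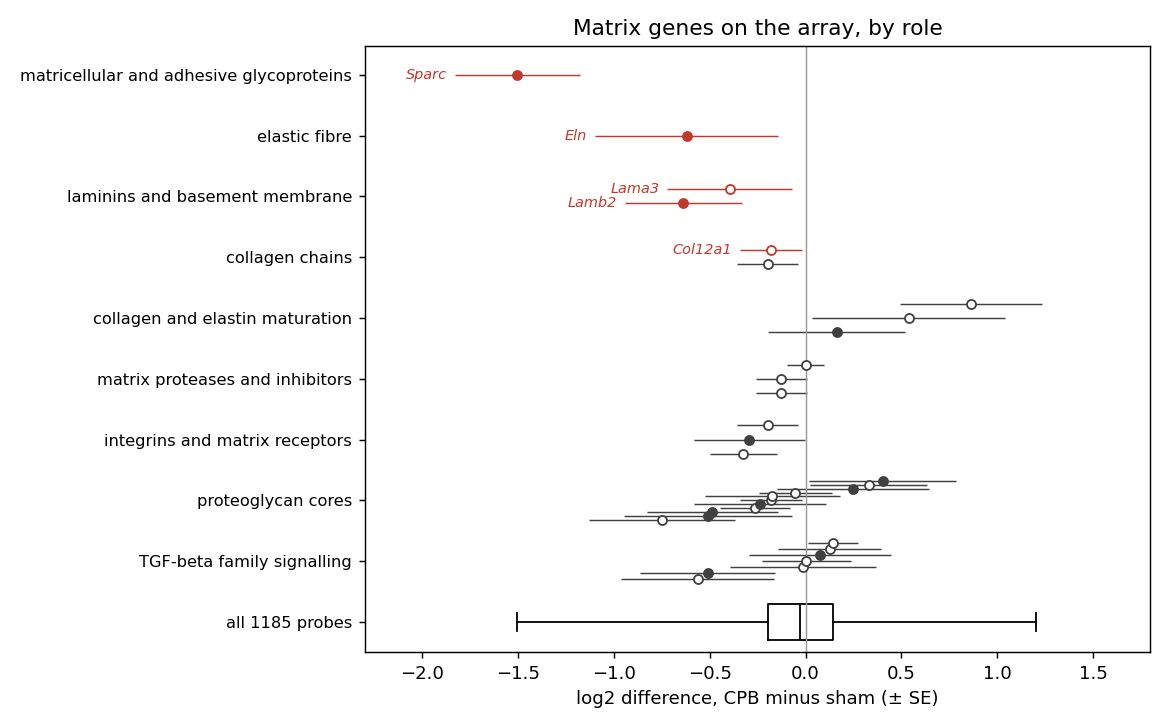
Log2 difference (CPB minus sham) ± SE for the 5 members (red) and the 28 other measured matrix genes (dark grey), grouped by role. Open circles were at the lowest level on 1 array or more. The box gives the quartiles and median (-0.03) of all 1185 probes, with whiskers from -1.50 to 1.20. The 3 measured genes of the maturation list lie above 0 and the members below it.

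Markers of the cells that make matrix were few on this array. Of 17 fibroblast markers, 4 were measured, Sparc among them. The other 3 were lower in CPB without passing the threshold. Dcn, the collagen-binding proteoglycan decorin, differed by -0.51 (SE 0.44), or -0.12 after median scaling. S100a4 differed by -0.14 (SE 0.36), or -0.051 after median scaling, and Thy1 by -0.10 (SE 0.35), or 0.016 after it. Thy1 lay 0 to 2 steps above the lowest level and S100a4 1 to 5, so their differences are near the limit of measurement. The summed linear level of these 3 was 4018 to 10606 in CPB and 7070 to 14774 in sham hearts, so the groups overlapped. Most of that sum was Dcn, at log2 11.32 to 13.70 against at most 9.76 for Thy1 and S100a4. Dcn was lowest in CPB replicate 3 (11.32), while Sparc was lowest in CPB replicate 2. No endothelial marker of 14 was measured, and their part in the Sparc difference was not tested. Of 14 smooth muscle and pericyte markers, 3 were measured, with Tagln at 0.65 (SE 0.45), Cspg4 at 0.25 (SE 0.40, and -0.079 as deposited) and Myh11 at -0.21 (SE 0.28, and 0.15 after median scaling). Their summed level was 8473 to 16002 in CPB and 9564 to 11630 in sham hearts.

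Of 21 cardiomyocyte markers, 7 were measured, 3 higher and 4 lower, with a median of -0.10 that turned to 0.29 as deposited and 0.69 after median scaling. Their summed level was 618619 to 630332 in CPB and 615165 to 646301 in sham hearts, but quantile normalization fixes the Myh6 and Tnnt2 part of it at 476447 on every array. Without these 2 genes it was 142171 to 153884 in CPB and 138717 to 169853 in sham hearts, so no balance of muscle RNA can be read from it. As deposited, all 7 genes summed to 655853 to 716163 in CPB and 494473 to 673971 in sham hearts. Tnni3 and Casq2 differed by 0.47 (SE 0.28) and 0.38 (SE 0.33), and Ckm by -0.47 (SE 0.31), or 0.11 after median scaling. Among blood cell markers, S100a9, the only one of 13 for neutrophils and monocytes, differed by -1.07 (SE 0.47), with overlapping groups. It was lowest in CPB replicate 1, the CPB heart with the highest Sparc value, where its spot lay 2 steps above the lowest level. The macrophage genes C1qb and Aif1, 2 of 13, summed to 4401 to 5662 in CPB and 5452 to 6957 in sham hearts, with a median difference of -0.20 that was 0.10 after median scaling. The lymphocyte genes Cd3d, Cd8a and Prf1, 3 of 17, summed to 2239 to 6417 and 2253 to 2583, and the mast cell genes Cpa3, Fcer1a and Ms4a2, 3 of 10, to 1988 to 3449 and 2828 to 3067. The 7 measured nerve and glia markers of 15, 2 higher and 5 lower, summed to 5579 to 6902 in CPB and 7116 to 7650 in sham hearts, so these groups stood apart. Their median was -0.13, and 0.046 after median scaling. How often sums of other genes stand apart was not tested. Prph, a filament protein of peripheral neurons, differed by -0.54 (SE 0.33), the glial filament gene Gfap by -0.28 (SE 0.29), or 0.046 after median scaling, and the glial factor Sox10 by -0.18 (SE 0.16), at most 1 step above the lowest level. None of the 14 erythroid and platelet or 8 adipocyte markers was measured. The part of these cells in the members' differences was not tested.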

How the data were processed

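Total RNA of 6 whole rat hearts (3 CPB, 3 sham) was measured on arrays of 1185 probes, and groups and replicate numbers came from sample titles. The values the authors deposited are taken to be on a natural log scale, since 2 times their hyperbolic sine lies on a grid of equal steps within each array. The array chemistry, background correction and normalization are not stated in the labels. Symbols came from the platform annotation (1113 probes with 1 symbol, 1106 of them found in RefSeq).

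Linear values were quantile normalized with ties averaged, taken to log2 with no pseudocount and fitted with limma 3.58.1 in R 4.3.3 (eBayes with a variance trend, Benjamini-Hochberg over all probes, threshold 0.05). The number of arrays limits the precision.

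Members, lists, motifs and the rule for named genes were chosen with earlier results of these data known. The rule names all measured genes of lists with up to 6 besides the members, otherwise the 3 with the smallest unadjusted p, and the 3 probes nearest each member. Genes with several probes were represented by the brightest.

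Deviations of CPB and sham arrays of the same number from their group means correlated across probes at 0.240, 0.277 and 0.296, all above 0.1. Arrays of different numbers were not compared. Arrays numbered 1 and arrays numbered 3 were also alike in the share of probes at the lowest level, and those numbered 2 less so. In CPB and sham it was 27.4% and 25.9% for number 1, 10.7% and 20.5% for number 2, and 47.3% and 43.3% for number 3. With these shares and no comparison between different numbers, the correlations cannot tell whether the numbers pair the hearts. The main fit had no pairing.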

Additional observations from a re-analysis of the deposited data

How the results depend on the processing

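Sparc was lower in CPB in all 18 alternatives (-1.83 to -1.01), Lamb2 in all 18 (-0.78 to -0.33), Eln in all 18 (-1.25 to -0.28), Lama3 in all 17 (-0.72 to -0.19) and Col12a1 in 16 of 17 (-0.63 to 0.016). The members were chosen on this contrast, so these counts are a description and no support for it. The filters on probes, the fit without a variance trend and the replicate block cannot change a difference of group means. Median scaling over all probes moved Sparc to -1.01 and Lamb2 to -0.33. The values as deposited moved Lama3 to -0.72 and Col12a1 to -0.62, and scaling on the median of probes above the lowest level everywhere moved them to -0.72 and -0.63. Median scaling shifts all probes of an array by the same amount, so every difference as deposited was shifted equally by it. With deposited values raised to a common floor, Lama3 was at -0.46 and Col12a1 at -0.14. The cause of the moves from the main fit was not tested. A pseudocount at the 25th percentile brought Lama3 to -0.23 and Col12a1 to -0.098. Leaving out 1 array gave -1.83 to -1.18 for Sparc, -1.25 to -0.28 for Eln, -0.78 to -0.48 for Lamb2, -0.58 to -0.26 for Lama3 and -0.27 to 0.016 for Col12a1. Sparc was chosen on this contrast, so a call of it is given as a description and not as support. The number of probes called was 0 in the main fit and 1, Sparc, in the values as deposited. Raising those to a common floor kept the Sparc difference at -1.40, but its SE went from 0.33 to 0.41 and the call was lost (0 called). Over fits leaving out 1 array it was 0 to 1, the 1 being Sparc without CPB replicate 1. Adding replicate numbers to the fit (replicate block) left it at 0, each difference stayed as it was (Sparc -1.50) and no call changed, while the SE was 0.35 for Sparc, 0.31 for Eln, 0.14 for Lamb2, 0.22 for Lama3 and 0.16 for Col12a1. The median over all probes moved from -0.03 to -0.29 as deposited and 0.11 after median scaling. The filter on probes above the lowest level everywhere left out Lama3 and Col12a1. The common floor and the fit without both arrays numbered 3 were added after seeing the data. Distance from the lowest level limits Eln, Lama3 and Col12a1.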
